A study of Mus musculus with 18 samples.

Results

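The genes of megalin-cubilin protein reabsorption were followed through 21 days after unilateral ischemia-reperfusion (UIR) of the mouse kidney. The set holds 8 genes, Lrp2, Cubn, Amn, Dab2, Lrpap1, Clcn5, Fcgrt and Folr1, taken by symbol from the 20825 genes of a table of FPKM (fragment counts scaled to transcript length and to library size). The rule names them by symbol alone, and they were chosen with earlier results of these data known. All 8 were among the 14716 genes that reached at least 1 FPKM in at least 3 libraries and were therefore tested. The animals were C57BL/6 mice aged 11 weeks. In the UIR mice the pedicle of the right kidney was clamped for 45 minutes and then released, with the left kidney intact, and sham-treated mice were the controls. Kidney tissue was taken 1, 3 or 21 days after surgery from 3 mice labelled as biological replicates in each of the 6 groups, which gave 18 libraries of total RNA. Which kidney was sampled and the sex of the mice are not given in the sources used here.

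In the proximal tubule, filtered proteins, vitamin carriers and hormones are taken back from the tubular fluid by receptor-mediated endocytosis. Megalin and cubilin bind these ligands in clathrin-coated pits at the base of the brush border, the vesicles acidify, the ligands go on to lysosomes and the receptors recycle. Loss of this machinery gives tubular, or low-molecular-weight, proteinuria, and the pathway is a hallmark of the differentiated proximal tubule cell.

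Across the libraries the FPKM sums ran from 424207 to 549490. Read depth is unknown, since the table holds no counts, and the smallest step between low values differed by up to 1.44 times between libraries. The summed FPKM of 20 proximal tubule markers was 27260 to 65790 in the 9 sham libraries, with no marker at 0 in any library. Proximal tubule transcripts were thus present in all control kidneys. The sum was 9647 to 16970 in UIR at day 1, 1114 to 1402 at day 3 and 431 to 1939 at day 21. The sham libraries of day 1 stood apart from the later shams: 42.5% of all tested genes differed between sham day 3 and sham day 1, against 0.034% between sham day 21 and sham day 3. Within UIR at days 1, 3 and 21, replicate 3 had the lowest proximal tubule sum of its group, at 9647, 1114 and 431.

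Relative to sham, most of the set was lower at every time after UIR, and the receptors were furthest below sham at day 21. At day 1 6 members were lower and none higher, where 31.1% of all genes were called lower and 28.5% higher. At day 3 5 were lower, against 17.9% of all genes, and Clcn5 alone was higher, against 57.6%. At day 21 7 were lower and none higher, where 20.1% of all genes were lower and 60.7% higher. UIR and sham libraries did not overlap for 6, 7 and 7 of the 8 at the successive times, against 61.3%, 78.7% and 84.3% of all genes. The median log2 fold of the members was -0.94, -1.36 and -2.56 at the successive times, and that of all tested genes was -0.03, 0.44 and 0.53. With median-of-ratios scaling, 35.2% of all genes were higher and 33.6% lower at day 3, and 39.5% and 36% at day 21. Calls are from limma on log2(FPKM + 1), with Benjamini-Hochberg adjustment over all tested genes and a threshold of 0.05. Log2 folds are on that scale, which understates changes of low values. These are whole-tissue values, so fewer proximal tubule cells and less RNA per cell cannot be told apart.

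**Figure D1:**
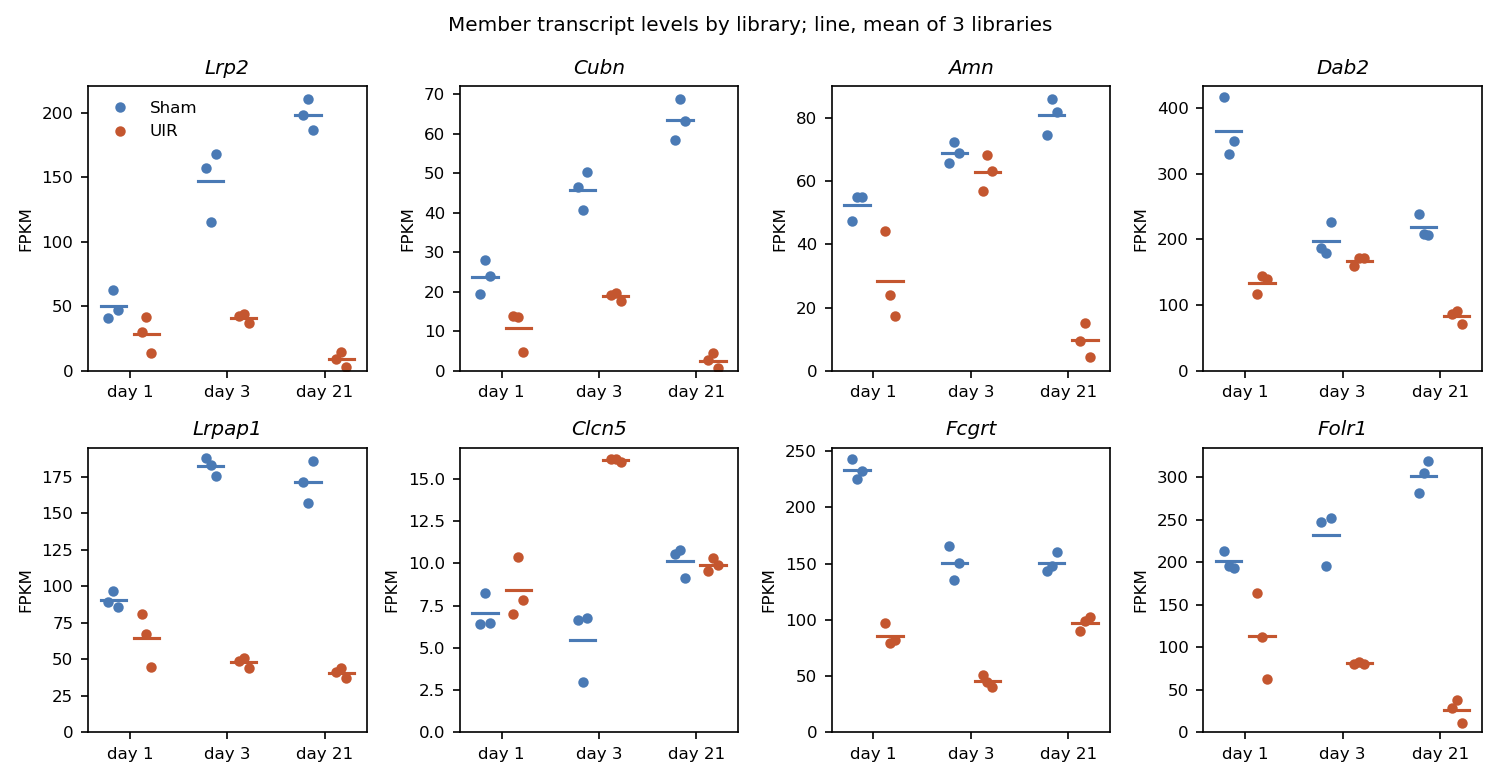
FPKM of each of the 8 genes by day (horizontal axis), with sham libraries in blue and UIR libraries in red. Points are single libraries and lines are means of 3. At day 21 the UIR points of Lrp2, at 2.83 to 14.8 FPKM, lie far below the sham points at 187 to 210 FPKM, while those of Clcn5 overlap with sham.

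Lrp2 encodes megalin, the giant endocytic receptor of the LDL receptor family that spans the apical membrane and carries the internalisation signals. Its sham libraries held 40.6, 62.6 and 47.6 FPKM at day 1, 157, 115 and 168 at day 3, and 198, 210 and 187 at day 21. The UIR libraries held 30.2, 41.7 and 13.8 FPKM at day 1, 42.3, 44.4 and 36.9 at day 3, and 9.47, 14.8 and 2.83 at day 21. The groups overlapped at day 1, where 1 UIR library exceeded the lowest sham, and were separate at day 3 and day 21. The day-1 log2 fold of -0.90 did not pass (SE 0.41, limma adjusted p = 0.069). Lrp2 fell by 1.79 on the log2 scale at day 3 (SE 0.41, limma adjusted p = 0.00088). At day 21 it fell by 4.53 on the log2 scale (SE 0.41, limma adjusted p = 3.6e-08), to 0.0456 of the sham mean.

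Cubn encodes cubilin, a large peripheral membrane protein with no membrane span of its own that binds intrinsic factor with cobalamin, albumin and other ligands. Sham levels were 19.5, 28.0 and 24.1 FPKM at day 1, 46.6, 40.7 and 50.3 at day 3, and 58.4, 68.7 and 63.1 at day 21. In UIR they were 13.9, 13.7 and 4.91 FPKM at day 1, 19.3, 19.8 and 17.8 at day 3, and 2.67, 4.61 and 0.62 at day 21. No UIR library reached a sham library of its own day. The log2 folds of Cubn were -1.18, -1.23 and -4.32 at the successive days (SE 0.36, limma adjusted p = 0.011, 0.0061 and 1.6e-08). At day 21 its mean was 0.0416 of the sham mean, the lowest remaining share among the 8 genes.

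Amn encodes amnionless, the transmembrane partner that anchors cubilin and brings it to the cell surface. Sham levels were 47.2, 55.1 and 54.8 FPKM at day 1, 65.6, 72.3 and 68.7 at day 3, and 74.7, 86.0 and 82.0 at day 21. In UIR the libraries held 44.1, 24.1 and 17.4 FPKM at day 1, 57.0, 68.2 and 63.2 at day 3, and 9.40, 15.1 and 4.46 at day 21. At day 3 the groups overlapped, in contrast to Lrp2 and Cubn, and at the other times every UIR library was lower. Amn fell by 0.95 on the log2 scale at day 1 (SE 0.31, limma adjusted p = 0.015) and by 3.07 at day 21 (SE 0.31, limma adjusted p = 1.3e-07). At day 3 its log2 fold was -0.13 (95% interval -0.79 to 0.52, limma adjusted p = 0.7) and changed sign, to 0.15, when each library was rescaled to a common sum (TPM).

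Of the day-1 calls, 3 were lost without UIR replicate 3, which had the lowest Lrp2, Cubn, Amn, Lrpap1 and Folr1 of its group and the lowest proximal tubule sum, at 9647. Without it, the number of members called at day 1 went from 6 to 3. Cubn then had a log2 fold of -0.74 (limma adjusted p = 0.069), Amn of -0.66 (0.083) and Folr1 of -0.56 (0.16). Over all alternative settings the limma adjusted p of these 3 genes at day 1 ran from 5.8e-06 to 0.069, from 0.00014 to 0.083 and from 0.00089 to 0.16. The lowest value of each came with a different control, sham days 3 and 21 in place of sham day 1. For Lrp2 at day 1 the limma adjusted p ran from 5e-06, against sham days 3 and 21 as control, to 0.33, without UIR replicate 3.

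The sequences upstream of the receptor genes were set side by side because Lrp2 and Cubn levels tracked each other across the libraries with a Pearson r of 0.99 on log2(FPKM + 1). The windows are the 250 bases before the RefSeq transcription start on the GRCm38.p6 build. Lrp2 lies at chr2:69586030-69586279 (minus strand), Cubn at chr2:13491877-13492126 (minus strand) and Amn at chr12:111270846-111271095 (plus strand). Capitals mark matches to any of 4 motifs, searched on both strands, and no 2 matches overlapped. The half-site of nuclear receptors reads AGGTCA. The site of the stress-responsive factor AP-1 was searched as TGANTCA. The GC box, bound by Sp-type factors, was searched as GGGCGG. The last is the TATA box, searched as TATAAA.
Lrp2: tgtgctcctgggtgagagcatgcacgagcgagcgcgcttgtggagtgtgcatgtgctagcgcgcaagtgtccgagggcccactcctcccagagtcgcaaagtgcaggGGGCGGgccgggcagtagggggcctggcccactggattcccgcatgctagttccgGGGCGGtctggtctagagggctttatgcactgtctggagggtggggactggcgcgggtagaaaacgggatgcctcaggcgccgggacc
Cubn: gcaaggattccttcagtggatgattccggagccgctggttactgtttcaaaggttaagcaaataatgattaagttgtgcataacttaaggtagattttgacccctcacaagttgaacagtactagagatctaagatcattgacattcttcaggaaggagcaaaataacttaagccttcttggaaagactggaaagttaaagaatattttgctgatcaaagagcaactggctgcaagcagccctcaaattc
Amn: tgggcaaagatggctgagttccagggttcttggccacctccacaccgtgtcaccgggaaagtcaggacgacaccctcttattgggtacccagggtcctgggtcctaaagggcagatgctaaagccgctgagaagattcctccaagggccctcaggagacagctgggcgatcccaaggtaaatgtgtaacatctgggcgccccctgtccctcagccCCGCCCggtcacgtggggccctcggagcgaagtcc
The Lrp2 window is 66.4% G and C and holds GC boxes that begin 143 and 88 bases before the start. The Cubn window is 39.6% G and C and holds none of the 4 motifs. The bases after this Cubn start were found in no Cubn transcript of a second annotation, GENCODE, while those of Lrp2 and Amn were found. The Amn window is 61.2% G and C and holds 1 GC box, 35 bases before the start. Of 32536 such windows in the RefSeq table, 33.0% hold a GC box, 6.73% the AP-1 site and 12.3% the TATA box, and the median G and C content is 52.4%. The nuclear receptor half-site occurs in 4567 of them. A match is a description of these letters only. Windows for 7 of the 8 genes were found. That of Lrpap1 holds 5 GC boxes, the first Clcn5 start 1 GC box and the second 1 TATA box, and those of Fcgrt and of both Dab2 starts none.

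Dab2 encodes the clathrin adaptor that binds the cytoplasmic tail of megalin. In sham it was at 416, 330 and 350 FPKM at day 1, 188, 180 and 227 at day 3, and 239, 209 and 207 at day 21. In UIR it was at 117, 145 and 139 FPKM at day 1, 160, 171 and 173 at day 3, and 87.2, 91.5 and 71.1 at day 21. Every UIR library was below every sham library of its day. Dab2 fell by 1.44 on the log2 scale at day 1 and by 1.38 at day 21 (SE 0.12, limma adjusted p = 8.6e-08 and 3e-08). The day-3 log2 fold of -0.23 did not pass (SE 0.12, limma adjusted p = 0.1). It was 0.05 with TPM, 0.19 with quantile normalization and -0.76 with median-of-ratios scaling, where it passed (limma adjusted p = 3.3e-05, range over alternatives 3.3e-05 to 0.73).

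Lrpap1 encodes the receptor-associated protein, a chaperone of the endoplasmic reticulum that keeps ligands off newly made megalin. Its sham libraries held 89.5, 96.8 and 86.0 FPKM at day 1, 188, 183 and 176 at day 3, and 171, 157 and 186 at day 21. The UIR libraries held 81.1, 67.2 and 44.8 FPKM at day 1, 49.0, 51.2 and 44.1 at day 3, and 41.0, 44.2 and 37.3 at day 21. Every UIR library was below the sham libraries of its day. The log2 folds were -0.53, -1.90 and -2.04 (SE 0.15, limma adjusted p = 0.0065, 1.2e-08 and 3.3e-09). At day 1 the limma adjusted p was 0.072 when only the groups compared were fitted, the highest of a range from 4.4e-08. That lowest value came with sham days 3 and 21 as control in place of sham day 1.

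Clcn5 encodes the endosomal chloride-proton exchanger whose loss causes Dent disease, with tubular proteinuria. It was the lowest of the 8 in the sham libraries, at 6.44, 8.23 and 6.48 FPKM at day 1, 6.68, 2.96 and 6.77 at day 3, and 10.5, 10.8 and 9.11 at day 21. In UIR it was at 6.98, 10.4 and 7.82 FPKM at day 1, 16.2, 16.2 and 15.98 at day 3, and 9.54, 10.3 and 9.88 at day 21. Only at day 3 did the groups separate, with UIR higher. Clcn5 rose by 1.47 on the log2 scale at day 3 (SE 0.20, limma adjusted p = 5.6e-06), or 1.03 above the median of all genes. The log2 folds of 0.21 at day 1 (95% interval -0.21 to 0.64) and -0.03 at day 21 (95% interval -0.45 to 0.39) did not pass (limma adjusted p = 0.37 and 0.9). At day 21 the value was -0.57 with median-of-ratios scaling and -0.67 with quantile normalization, both past the threshold (limma adjusted p = 0.017 and 0.0036, range over alternatives 0.0036 to 0.99), and 0.15 with TPM.

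Fcgrt encodes the heavy chain of the neonatal Fc receptor, which binds albumin and IgG in acidic endosomes and spares them from degradation. Sham levels were 243, 225 and 232 FPKM at day 1, 166, 135 and 150 at day 3, and 143, 148 and 160 at day 21. In UIR they were 97.1, 79.4 and 81.7 FPKM at day 1, 50.9, 45.2 and 40.5 at day 3, and 90.1, 99.3 and 102 at day 21. UIR was below sham in all libraries at all times, and day 3 was the lowest point. The log2 folds of Fcgrt were -1.43, -1.70 and -0.62 (SE 0.10, limma adjusted p = 1.3e-08, 5e-10 and 3.2e-05). Its light chain B2m, itself a filtered ligand of megalin, averaged 2154 ± 330 FPKM (SD, n = 3) in UIR at day 21 and 288 ± 17.3 in sham, a log2 fold of 2.89 (limma adjusted p = 2.2e-09). At day 1 it was lower in UIR, at 342 ± 92.9 against 555 ± 66.1 FPKM (log2 fold -0.73, limma adjusted p = 0.0063), and at day 3 higher, at 969 ± 283 against 382 ± 60.7 FPKM (log2 fold 1.31, limma adjusted p = 2.5e-05). B2m was named after its values were seen, and which cells its transcripts came from was not tested.

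Folr1 encodes folate receptor alpha, a lipid-anchored protein through which the proximal tubule takes back filtered folate. Sham libraries held 214, 196 and 194 FPKM at day 1, 248, 195 and 252 at day 3, and 281, 305 and 320 at day 21. In UIR the libraries held 163, 113 and 63.0 FPKM at day 1, 79.9, 82.7 and 81.0 at day 3, and 29.1, 38.1 and 10.7 at day 21. All UIR libraries were below sham at each day. The log2 folds of Folr1 were -0.93, -1.49 and -3.66 (SE 0.34, limma adjusted p = 0.029, 0.00099 and 6.1e-08). The day-1 call was lost under quantile normalization (limma adjusted p = 0.052) and without any 1 of the sham day-1 replicates (limma adjusted p = 0.055 to 0.072).

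**Figure D2:**
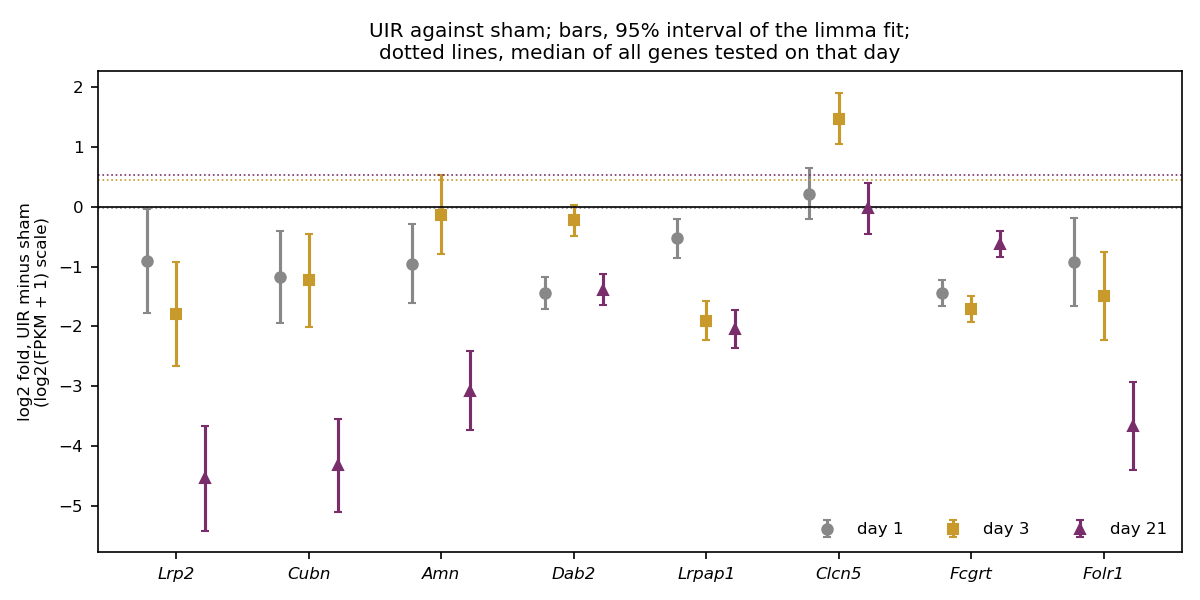
Log2 fold of UIR against sham (vertical axis, log2(FPKM + 1) scale) for each gene at day 1 (circles), day 3 (squares) and day 21 (triangles), with 95% intervals of the limma fit. Dotted lines give the median of all tested genes on each day. The triangles of Lrp2 and Cubn lie at -4.53 and -4.32, and the square of Clcn5 is the one clearly above 0.

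Within the UIR mice the members took different courses between the sampling days. From day 1 to day 3 4 were higher and 2 lower, where 49.4% and 17.1% of all genes were. The rises on the log2 scale were 1.21 for Amn, 0.88 for Clcn5, 0.87 for Cubn and 0.33 for Dab2 (limma adjusted p = 0.0028, 0.0011, 0.045 and 0.027). The median of all tested genes rose by 0.29 between these groups, and the rise of Dab2 was only 0.04 above that median. The call of Cubn held in 7 of 17 alternatives (limma adjusted p = 0.013 to 0.26), and its value was 0.43 without UIR day-1 replicate 3. That of Dab2 held in 13 of 17 (limma adjusted p = 0.0024 to 0.63), and its value was -0.07 with median-of-ratios scaling. The log2 changes of Fcgrt and Lrpap1 were -0.90 and -0.37 (limma adjusted p = 1.4e-06 and 0.038). The Lrpap1 call held in 10 of 17 alternatives (limma adjusted p = 1e-04 to 0.24), and its value was -0.21 with TPM and -0.19 without UIR day-1 replicate 1. Those of Amn, Clcn5 and Fcgrt held in all 17. With 1 library left out, 3 to 5 members were called in place of 6, and 3 without UIR day-3 replicate 3. From day 3 to day 21 6 members were lower, where 24% of all genes were, and Fcgrt was higher, where 32.2% were. The log2 changes were -2.71 for Amn, -2.63 for Cubn, -2.29 for Lrp2, -1.78 for Folr1, -1.01 for Dab2 and -0.65 for Clcn5. Fcgrt rose by 1.08 on the log2 scale (limma adjusted p = 2.7e-07). Lrpap1 did not pass, at -0.23. The difference from sham itself changed, by limma's interaction test, for 3 of 8 members between days 1 and 3, for 7 between days 3 and 21 and for 6 between days 1 and 21, where 62.9%, 46.2% and 70.4% of all genes did.

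The sham controls moved as well. From day 1 to day 3, the log2 changes were 1.53 for Lrp2, 1.00 for Lrpap1, -0.88 for Dab2 and -0.63 for Fcgrt (limma adjusted p = 0.0068, 7.9e-05, 4e-05 and 0.00014), so 2 were higher and 2 lower, where 12.8% and 29.7% of all genes were. Cubn, at 0.93, did not pass (limma adjusted p = 0.051), but did in 7 of 17 alternatives (0.0031 to 0.16). Between sham day 1 and day 21 5 of 8 were called, where 39.4% of all genes were. Between sham day 3 and day 21 none of the 8 passed, where 0.034% of all genes did. By unadjusted p under 0.05, Clcn5 alone passed, at 0.85 (limma adjusted p = 0.083). Against sham days 3 and 21 together, UIR day 1 had 7 members lower, where 32% of all genes were. The log2 fold was then -2.66 for Lrp2 and -2.33 for Cubn (limma adjusted p = 5e-06 and 5.8e-06), beside -0.90 and -1.18 against sham day 1. Those of Dab2 and Fcgrt, whose sham levels were highest at day 1, were -0.63 and -0.80 on this basis. The sham groups are shared between these comparisons and those above.

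Ratios between members within a library do not change when the library is divided by a single factor, as in TPM and median-of-ratios scaling. Quantile normalization can change them. The ratios were described without a test. FPKM is per length, so levels were set against each other between genes, as an approximation. Amn exceeded Cubn by a log2 ratio of 0.35 ± 0.03 (SD, n = 3) in sham at day 21 and by 2.12 ± 0.63 in UIR. UIR replicate 3 was the highest there at 2.85, with a mean of 1.76 without it. With 1 FPKM added to both terms the UIR mean was 1.59. The sham ratio was 1.15 ± 0.16 at day 1 and 0.59 ± 0.21 at day 3, and the UIR ratio was 1.44 ± 0.54 and 1.73 ± 0.14. At day 3 and day 21 all UIR libraries exceeded all sham libraries. Lrp2 against Cubn ranged from 1.07 to 1.90 over the 6 group means. At day 3 it was 1.12 ± 0.06 in UIR and 1.66 ± 0.14 in sham, and the libraries did not overlap. At day 21 it was 1.90 ± 0.26 in UIR and 1.65 ± 0.10 in sham. With 1 FPKM added to both terms these day-21 means were 1.42 and 1.63. The adaptor Dab2 exceeded Lrp2 by 0.14 ± 0.14 in sham and 3.49 ± 1.04 in UIR at day 21. UIR replicate 3 was the highest there at 4.65, with a mean of 2.92 without it. At day 1 this ratio was high in both groups, at 2.88 ± 0.48 in sham and 2.36 ± 0.85 in UIR. At day 3 it was 0.44 ± 0.19 in sham and 2.03 ± 0.17 in UIR. Lrpap1 to Lrp2 was -0.21 ± 0.21 in sham and 2.47 ± 1.12 in UIR at day 21. UIR replicate 3 was again the highest, at 3.72, with a mean of 1.85 without it. This ratio was 0.87 ± 0.26 in sham and 1.27 ± 0.52 in UIR at day 1. At day 3 it was 0.33 ± 0.31 in sham and 0.23 ± 0.03 in UIR.

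**Figure D3:**
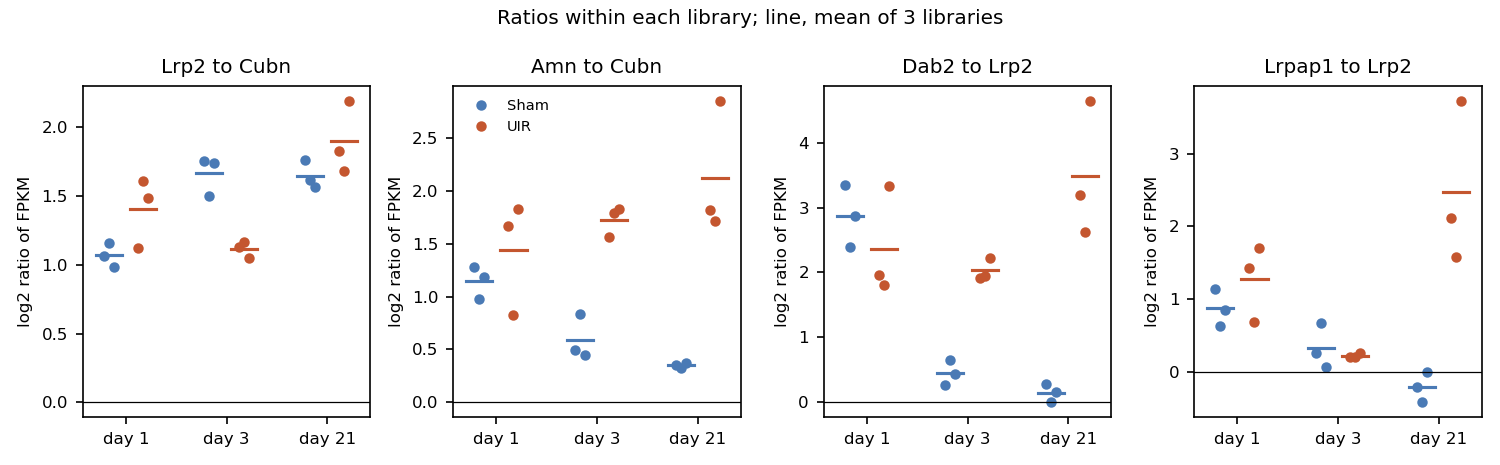
Log2 ratios of FPKM between pairs of members in each library (vertical axis) by day (horizontal axis), with sham in blue, UIR in red and lines for means of 3. The Amn to Cubn ratio of UIR libraries at day 21, at 1.71 to 2.85, lies above all sham libraries.

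Across the 18 libraries Lrp2 and Cubn correlated at r = 0.99 (Spearman 0.98) on log2(FPKM + 1), Cubn and Amn at 0.95, and Lrp2 and Folr1 at 0.93. Lrp2 and Dab2 correlated at 0.66 over all libraries, at -0.87 in the 9 sham and at 0.89 in the 9 UIR libraries. Libraries of a group share their treatment and day, so these values describe the groups as much as the mice. The genes most like Lrp2 among 9409 candidates were Slc47a1 (r = 0.98), an organic cation exporter of the brush border, Slc26a1, a sulfate transporter, and Kl, which encodes klotho. Cubn was most like Slc47a1 (0.99), Gcat and Pdzk1, a scaffold of brush-border transporters. Amn was most like Elovl2 (0.97), Slc2a2 and Fgfr4, and Dab2 was most like Mpp1 (0.98), Lrrc28 and Prosc. Lrpap1 was most like Amacr (0.99), Susd2 and Qdpr, and Folr1 was most like Slc17a1 (0.99), Slc7a9 and Nox4. Clcn5 was most like Rcor1 (0.96), Glyr1 and Abhd2, and Fcgrt was most like Htra1 (0.95), Cyp4f13 and Slc30a2.

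**Figure D4:**
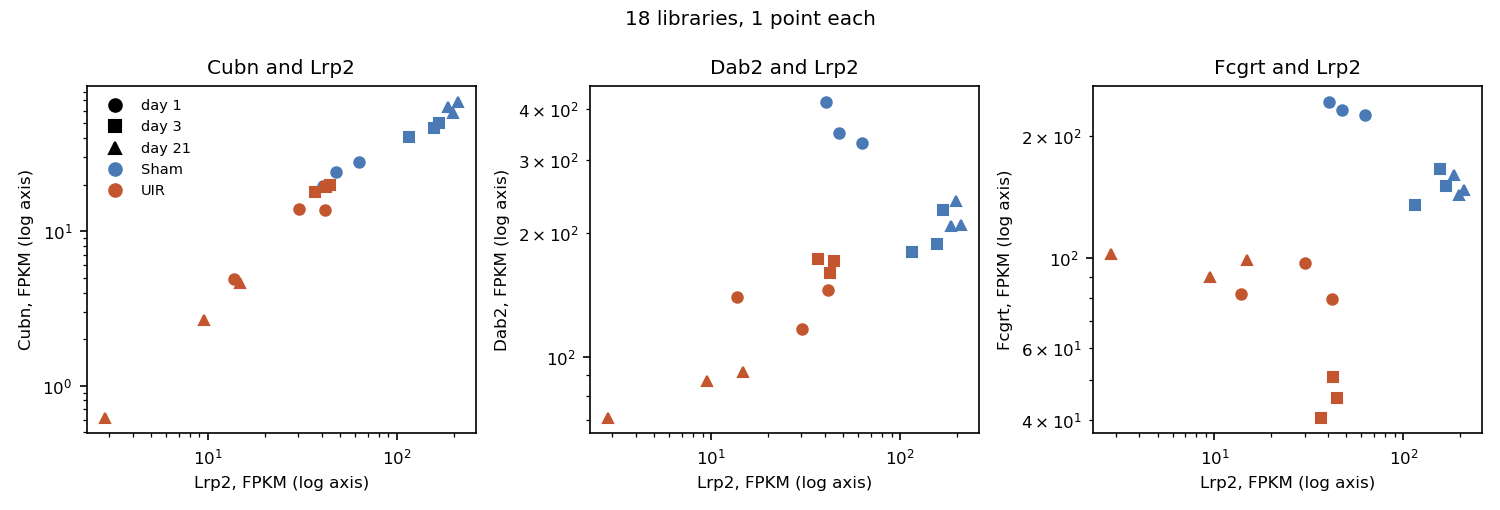
Cubn, Dab2 and Fcgrt against Lrp2 in FPKM on log axes, 1 point for each of the 18 libraries, with marker shape for day and color for sham (blue) or UIR (red). Cubn follows Lrp2 across all 18 points, while Dab2 correlates with Lrp2 at -0.87 in sham and 0.89 in UIR.

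Other markers moved with these results, and their part was not tested. At day 21 the summed FPKM of 13 macrophage markers was 3531 to 4943 in UIR and 58.4 to 71.8 in sham, that of 10 fibroblast and pericyte markers 1166 to 1294 and 58.8 to 81.9, that of 10 endothelial markers 473 to 491 and 170 to 266, and that of 6 podocyte markers 312 to 356 and 101 to 124. Sums of other nephron segments were lower at that day, at 485 to 757 in UIR and 1139 to 1298 in sham for 8 thick limb and distal tubule markers, and 145 to 176 and 236 to 298 for 8 collecting duct markers. The sum of 10 injured tubule markers was 6472 to 7117 in UIR and 611 to 762 in sham at day 21. All 10 were called higher at each of the 3 days, where 28.5%, 57.6% and 60.7% of all genes were. Of the 20 proximal tubule markers, 10 were lower at day 1, 19 at day 3 and 20 at day 21, where 31.1%, 17.9% and 20.1% of all genes were. The median log2 folds of these markers were -0.77, -4.39 and -5.08. The median of the 3 receptor genes Lrp2, Cubn and Amn was -0.95, -1.23 and -4.32. Over the 18 libraries the log2 proximal tubule sum correlated with Lrpap1 at r = 0.90, Folr1 at 0.89, Lrp2 at 0.79 and Amn at 0.62, and with Clcn5 at -0.65. Libraries of a group share their treatment in these values too.

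The other genes of the pathway were counted by step, against 28.5%, 57.6% and 60.7% of all genes higher and 31.1%, 17.9% and 20.1% lower at days 1, 3 and 21. Of 16 clathrin coat and adaptor genes, 5, 12 and 9 were higher and 3, 1 and 4 lower at days 1, 3 and 21, with median log2 folds of 0.07, 0.52 and 0.32. With median-of-ratios scaling 5 were higher and 5 lower at day 3, and 3 higher and 9 lower at day 21, with a median of -0.27. Ap2b1, a subunit of the clathrin adaptor complex, had log2 folds of 1.47 at day 3 and 1.26 at day 21, and Cltb, a clathrin light chain, of -0.76 and -0.72 (limma adjusted p = 4e-09, 1.5e-08, 4.2e-07 and 5.4e-07). At day 1 Cltb had been higher in UIR, with a log2 fold of 0.89 (limma adjusted p = 2e-07). Of 18 early and recycling endosome genes, 7, 7 and 3 were higher and 6, 5 and 8 lower, and with median-of-ratios scaling 2 were higher and 12 lower at day 3 and 3 higher and 15 lower at day 21. Rab11fip3, an effector of recycling endosomes, had log2 folds of -2.15, -1.17 and -2.57. Of 16 subunits of the vacuolar proton pump, which acidifies the endosome, 4, 3 and 1 were higher and 6, 9 and 12 lower, with medians of -0.13, -0.26 and -0.57. The day-3 median was 0.024 with TPM, while at day 21 the medians were negative under all 3 rescalings. At day 21 the log2 folds were -1.31 for Atp6v1b2, -1.19 for Atp6v0a4 and 0.46 for Atp6v0a1, which was -0.11 with median-of-ratios scaling. Of 12 LDL receptor family genes, 4, 5 and 5 were higher and 5, 3 and 2 lower, and with median-of-ratios scaling 4 were higher and 6 lower at day 3 and 2 higher and 6 lower at day 21. Lrp1, which is abundant in mesenchymal cells, rose by 3.28 on the log2 scale at day 21, from 3.18 to 39.4 FPKM. Of 10 relatives of the chloride exchanger and folate receptor, 1, 2 and 3 were higher and 4, 2 and 1 lower, and with median-of-ratios scaling 0 and 1 were higher and 6 and 8 lower at days 3 and 21. The log2 fold of Clcn3 was -1.05 at day 21.

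**Figure D5:**
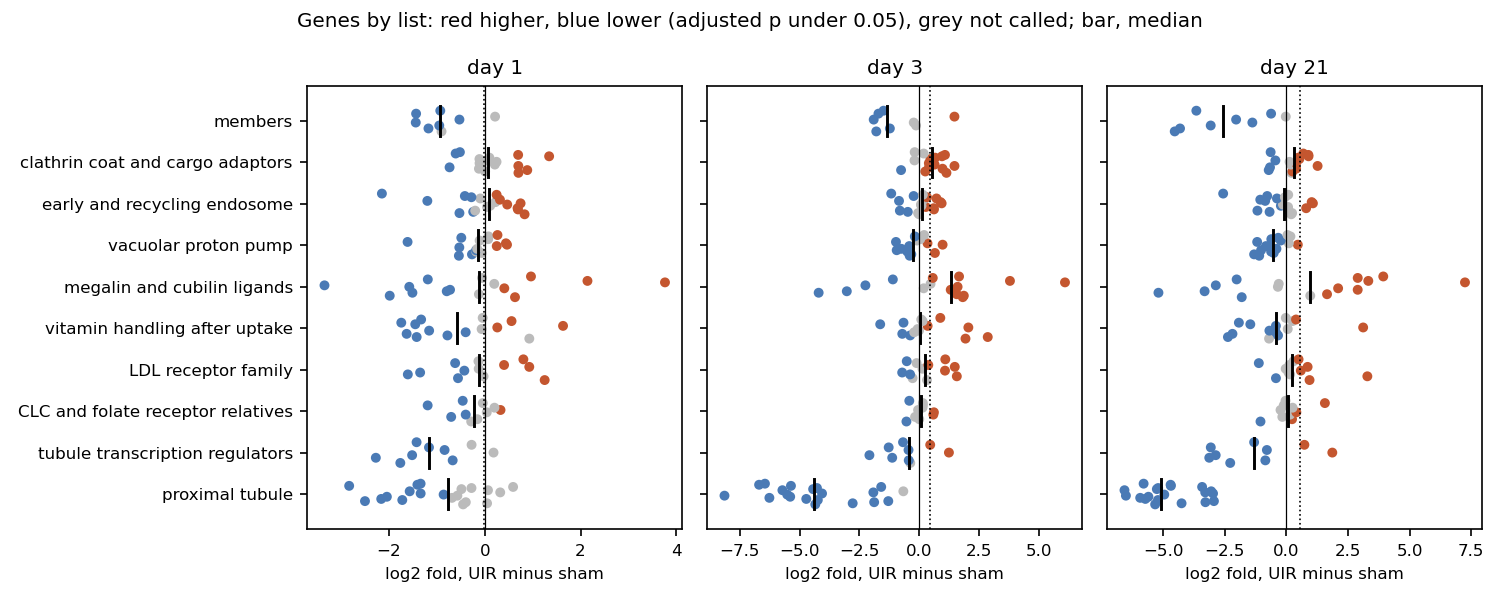
Log2 fold of UIR against sham (horizontal axis) for each gene of the 8 members, of the pathway lists and of the proximal tubule markers, in panels by day. Red points passed as higher, blue as lower and grey did not pass, bars are list medians and the dotted line is the median of all tested genes. The member medians lie at -0.94, -1.36 and -2.56.

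Among 15 tested ligands of megalin and cubilin, 5, 9 and 7 were higher and 7, 4 and 5 lower at the 3 days. For this list and those below, 28.5%, 57.6% and 60.7% of all genes were higher and 31.1%, 17.9% and 20.1% lower. These are transcripts in kidney tissue, and the filtered proteins were not measured. Lcn2, an iron-siderophore carrier and injury marker, had log2 folds of 3.76, 6.08 and 7.24, and transthyretin, Ttr, of -4.20 and -5.19 at days 3 and 21. Tcn2, which carries cobalamin, had log2 folds of -3.03 and -3.32 at those days, from 1144 to 140 and from 1279 to 129 FPKM. Of 14 genes for handling vitamins after uptake, 3, 5 and 2 were higher and 8, 4 and 8 lower, and the day-3 median of 0.04 was -0.45 with median-of-ratios scaling. Vdr, the vitamin D receptor, had log2 folds of -1.63, -0.71 and -2.19. Of 9 tubule transcription regulators, 0, 2 and 2 were higher and 7, 6 and 7 lower, with medians of -1.17, -0.45 and -1.31 that stayed below 0 under all 3 rescalings. Hnf4a had log2 folds of -2.28 and -3.13 at days 1 and 21, to 44.1 and 34.2 FPKM from 212 and 287. Nr1h4, the bile acid receptor FXR, had a log2 fold of -3.07 at day 21 and Ppara of -2.08 at day 3. All genes named in the last lists passed limma at the adjusted threshold of 0.05 on the days given.

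The order of the levels changed with treatment. In sham at day 21 it was Folr1 (302 FPKM), Dab2 (218), Lrp2 (198), Lrpap1 (172), Fcgrt (150), Amn (80.9), Cubn (63.4) and Clcn5 (10.2), with Dab2 and Lrp2, and Lrpap1 and Fcgrt, overlapping. In UIR at day 21 it was Fcgrt (97.3 FPKM), Dab2 (83.3), Lrpap1 (40.9), Folr1 (26.0), Clcn5 (9.91), Amn (9.65), Lrp2 (9.04) and Cubn (2.63). There Fcgrt overlapped Dab2, Lrpap1 overlapped Folr1, and the last 4 overlapped their neighbours. The 8 genes made up 0.241 to 0.244% of all FPKM in sham and 0.0546 to 0.0749% in UIR at day 21.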

How the data were processed

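Total RNA from 18 kidney samples was sequenced, and the authors deposited 1 table of FPKM for 20825 genes; HISAT2 2.0.4, Bowtie2 2.2.5, RSEM 1.2.12 and build mm9 are named, with no role, per the submitters' processing notes. Samples were grouped by their labels. Genes with at least 1 FPKM in at least 3 libraries were kept (14716). Values were tested as log2(FPKM + 1) with limma 3.58.1 in R 4.3.3 (1 mean per group, variance trend, 12 residual degrees of freedom, two-sided), with p adjusted by Benjamini-Hochberg over all tested genes and called at 0.05. The scripts were tested on simulated data. An exact permutation test of 3 against 3 cannot go below 0.1. That separate mice gave the replicates rests on their labels. Symbols turned into dates were restored for 27 genes, and 20766 identifiers matched RefSeq. The members and gene lists were chosen with earlier results of these data known. Of each pathway list, up to 2 genes with the largest increase and 2 with the largest decrease past the threshold were eligible to be named at each day, at a mean of at least 5 FPKM. Most-alike genes were the 3 with the highest r at the same minimum. Promoter windows came from RefSeq on GRCm38.p6, a different build from mm9, and were matched by Entrez gene identifier. Alternatives covered pseudocounts of 0.1 and 5, filters, scalings, library weights, the variance trend, a replicate block, fits of the compared groups only and leaving out each library. Some genes eligible by the naming rule are not reported here.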

Additional observations from a re-analysis of the deposited data

Results flagged for a closer look

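The difference between UIR and sham changed between days for several members, by limma's test of the interaction (adjusted over all genes). From day 1 to day 3, the effect changed by 1.21 on the log2 scale for Dab2 (adjusted p = 2.2e-05), by 1.25 for Clcn5 (0.0012) and by -1.37 for Lrpap1 (4.7e-05), so 3 of 8 were called, where 62.9% of all genes were. From day 3 to day 21 it changed by -2.74 for Lrp2 (0.0012), -3.09 for Cubn (0.00017), -2.94 for Amn (6.5e-05), -1.15 for Dab2 (7.2e-05), -1.50 for Clcn5 (5e-04), -2.17 for Folr1 (0.002) and 1.08 for Fcgrt (2.5e-05), so 7 of 8 were called, where 46.2% of all genes were. From day 1 to day 21 it changed by -3.63 for Lrp2 (4e-05), -3.14 for Cubn (5.2e-05), -2.12 for Amn (0.00044), -1.51 for Lrpap1 (1.1e-05), -2.73 for Folr1 (0.00012) and 0.81 for Fcgrt (0.00012), so 6 of 8 were called, where 70.4% of all genes were. The Fcgrt value from day 1 to day 21 was 0.18 with median-of-ratios scaling. The day-1 effect rests on the sham day-1 libraries, which stood apart from the later shams.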

How the results depend on the processing

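Of the 19 calls of members against sham, 14 passed under every alternative run, 5 were lost under at least 1 (Cubn, Amn, Lrpap1 and Folr1 at day 1, and Cubn at day 3 with TPM), and none changed sign. Cubn at day 3 had a limma adjusted p of 0.05 with TPM, in a range from 3.1e-05. With 1 library left out, the members called against sham numbered 3 to 7 at day 1 (3 without UIR day-1 replicate 3), 6 at day 3 and 7 at day 21. They numbered 3 to 5 for UIR day 3 against day 1, 7 for UIR day 21 against day 3, 4 for sham day 3 against day 1, 0 to 1 for sham day 21 against day 3 (1 without sham day-3 replicate 3) and 5 for sham day 21 against day 1. The changes of effect between days 1 and 3, 3 and 21, and 1 and 21 were called in 3 to 4, 7 and 6 members. The change from day 1 to day 3 was called in 5 members with median-of-ratios scaling and in 6 with library weights, in place of 3. Sham day 21 against day 3 was called in 1 with library weights in place of 0, and sham day 21 against day 1 in 8 with only the groups compared in place of 5. Of the values below that turned sign, Dab2 in UIR day 3 against day 1 and the named pathway genes were called and the other members' values were not, and the cause was not tested. Against sham, Amn at day 3 was 0.15 and Dab2 0.053 with TPM, Dab2 was 0.19 with quantile normalization, and Clcn5 at day 21 was 0.15 with TPM and -0.098 to 0.015 with 1 library left out, above 0 without sham day-21 replicate 2. For the change of effect from day 1 to day 3, Cubn was 0.25 and Fcgrt 0.0054 with TPM, and Cubn was -0.49 to 0.17 with 1 library left out, above 0 without sham day-1 replicate 1, sham day-3 replicate 3, or UIR day-1 replicate 1 or 2. From day 1 to day 21, the change of effect of Dab2 was -0.57 with median-of-ratios scaling (limma adjusted p = 0.0077), where it was called, and -0.041 to 0.17 with 1 library left out, below 0 without sham day-1 replicate 1, UIR day-1 replicate 1 or UIR day-21 replicate 2. Dab2 in UIR day 3 against day 1 was -0.069 with median-of-ratios scaling. In sham day 21 against day 3, Lrpap1 was 0.0023 with TPM and 0.011 with quantile normalization, and Fcgrt was -0.012 with median-of-ratios scaling, -0.11 with library weights and -0.071 to 0.075 with 1 library left out, below 0 without sham day-3 replicate 2 or sham day-21 replicate 3. Rescaling moved the median of all genes at days 3 and 21 from 0.44 and 0.53 to 0.75 and 0.76 with TPM and to 0.03 and 0.05 with median-of-ratios scaling, and the share of calls that were higher from 76.3% and 75.2% to 84.1% and 80.2%, or to 51.2% and 52.3%. The rescalings of the pathway lists and of their named genes were chosen after seeing the data. List medians turned sign at day 3 for the proton pump (0.024, TPM), the recycling endosome (-0.40, median-of-ratios), vitamin handling (-0.45, median-of-ratios, and -0.49, quantile), the LDL receptor family (-0.26 under both) and the exchanger and folate receptor relatives (-0.46 and -0.37). At day 21 they did so for the recycling endosome (0.079, TPM), the clathrin coat (-0.27, median-of-ratios), the LDL receptor family (-0.29, median-of-ratios, and -0.20, quantile) and the relatives (-0.39 and -0.45). With median-of-ratios scaling Tfeb was -0.047 at day 3, and Atp6v0a1 was -0.11, Ostm1 -0.14 and Clcn4 -0.35 at day 21. With quantile normalization Ostm1 was -0.15. Over 9 same-number sham-UIR pairs of a day, deviations correlated at -0.07 to 0.113, with 2 above 0.1. Of 9 UIR libraries, 4 correlated best with their own number. Pairing across days was not tested. With a replicate block, 7, 6 and 7 members were called at days 1, 3 and 21, Lrp2 at day 1 included (limma adjusted p = 0.043). Read depth is unknown and limits what low values, such as Cubn in UIR at day 21, can show.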
